A study of Mus musculus with 138 samples.

Results

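Among 138 allergen-challenged mouse lungs, the 35 with the highest and the 35 with the lowest levels of the chemokine transcripts Cxcl9 and Cxcl10 were compared. Each mouse received a score, the mean over Cxcl9 and Cxcl10 of the z value of its level across all 138 mice, taken from the authors' deposited log2 values at the probe with the highest mean. The 35 mice at the top are called high, the 35 at the bottom low, and 68 mice lay in neither group. Because the groups were chosen by measurement and not by any label, the p-values given here say which other genes went with the 2 chemokines, and the levels of Cxcl9 and Cxcl10 themselves were not tested.

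Both groups came from one treatment. Every mouse was injected intraperitoneally with 10 ug of Der p 1, a house dust mite allergen, challenged with 50 ug of Der p 1 on day 15 and harvested on day 18, 72 hours after the challenge. The mice belonged to partially inbred pre-Collaborative Cross lines, bred by intercrossing the founder strains 129S1/SvImJ, A/J, C57BL/6J, CAST/Ei, NOD/LtJ, NZO/H1LtJ, PWK/Ph and WSB/Ei. Each line gave 1 mouse, no mouse was untreated, and age and sex are not in the labels used here, so an effect of line cannot be told apart from differences between single mice and none of the values shows an effect of the allergen. Whole lung RNA was hybridised to Illumina WG6v2 bead arrays with 45281 probes, of which 19075 to 21472 were detected per array (median 20426.5). High and low mice had a median of 20514 and 20399 detected probes, and their median raw array intensity was 46.9 and 45.9. Levels are normalized log2 intensities.

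CXCL9 and CXCL10 are small secreted proteins that bind the receptor CXCR3 and draw activated T cells and natural killer cells into tissue. Interferon gamma, made by those same lymphocytes, induces both chemokines in macrophages, endothelium and epithelium. Type I interferons, acting through the ISGF3 complex, are a stronger inducer of CXCL10 than of CXCL9. In allergic airways, where a type 2 response with eosinophils and mucus usually dominates, the pair is regarded as a sign of an interferon arm of inflammation.

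Shown here are the promoters of the 2 chemokine genes, an interferon-induced GTPase gene (Igtp) and a pair of interferon-stimulated genes (Isg15 and Irf7). A fit described below asked which genes followed either chemokine more than the other. Each window is 300 bases of RefSeq sequence on GRCm38.p6, from 250 before to 50 after the gene's start, 5′ to 3′ on the gene's strand. Capitals mark a pair of GAAA separated by any 2 bases, a core of the interferon-stimulated response element bound by ISGF3 and IRF factors, or TTCNNNGAA (N, any base), the gamma-activated site of interferon gamma targets, both searched on either strand.
Cxcl9, chr5:92328030-92328329, minus strand: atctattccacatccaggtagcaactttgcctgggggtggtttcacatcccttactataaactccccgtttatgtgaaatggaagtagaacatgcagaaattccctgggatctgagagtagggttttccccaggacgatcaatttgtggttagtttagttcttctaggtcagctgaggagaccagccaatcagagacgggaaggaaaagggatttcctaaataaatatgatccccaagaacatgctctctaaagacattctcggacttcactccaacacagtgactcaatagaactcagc
Cxcl10, chr5:92348840-92349139, minus strand: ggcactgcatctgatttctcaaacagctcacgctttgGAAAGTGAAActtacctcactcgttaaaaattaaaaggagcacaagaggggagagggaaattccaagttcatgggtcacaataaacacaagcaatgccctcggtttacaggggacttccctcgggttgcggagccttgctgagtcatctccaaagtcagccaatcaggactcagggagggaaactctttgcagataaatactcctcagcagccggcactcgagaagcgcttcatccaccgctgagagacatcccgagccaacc
Isg15, chr4:156200769-156201068, minus strand: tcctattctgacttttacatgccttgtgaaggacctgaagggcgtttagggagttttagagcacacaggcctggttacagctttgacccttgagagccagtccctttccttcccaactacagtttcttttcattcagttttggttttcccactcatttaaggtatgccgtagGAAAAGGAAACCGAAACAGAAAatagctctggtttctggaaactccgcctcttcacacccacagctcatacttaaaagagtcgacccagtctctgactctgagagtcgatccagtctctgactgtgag
Irf7, chr7:141266375-141266674, minus strand: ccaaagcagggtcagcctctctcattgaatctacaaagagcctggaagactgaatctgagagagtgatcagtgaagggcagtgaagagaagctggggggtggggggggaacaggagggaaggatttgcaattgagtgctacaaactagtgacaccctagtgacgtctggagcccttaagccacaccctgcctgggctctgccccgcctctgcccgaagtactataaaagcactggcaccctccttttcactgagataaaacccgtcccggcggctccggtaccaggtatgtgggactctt
Igtp, chr11:58199306-58199605, plus strand: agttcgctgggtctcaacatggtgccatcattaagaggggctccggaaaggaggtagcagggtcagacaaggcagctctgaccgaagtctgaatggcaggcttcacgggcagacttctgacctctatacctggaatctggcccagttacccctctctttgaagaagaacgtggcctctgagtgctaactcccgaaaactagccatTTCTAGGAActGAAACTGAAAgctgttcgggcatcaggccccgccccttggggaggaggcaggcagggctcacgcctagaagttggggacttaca
The Cxcl10 window held 1 response element, 213 bases before the start, and the Cxcl9 and Irf7 windows held neither motif. Isg15 had 3 overlapping response elements, and Igtp had 1 response element with 1 gamma-activated site beside it. The response element occurred in 3.44% of all 32851 promoter windows in the RefSeq table, and the gamma-activated site in 8.30%. A match describes letters in a window and is not evidence of binding, and a window without one says nothing about the factor.

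Cxcl9 had a lowest, median and highest level of 7.38, 8.60 and 11.58 in high mice, against 4.69, 5.75 and 6.48 in low mice. Cxcl10, measured by the probe with the highest mean, had 6.45, 7.63 and 9.63 in high mice, against 4.46, 5.05 and 6.18 in low mice. The rule that formed the groups left no overlap for either gene. All 35 high mice had Cxcl9 detected, as had 31 of 35 low mice, and Cxcl10 was detected in 35 high and 24 low mice. A dimmer probe for Cxcl10 was detected in 7 high mice and in 0 low mice. The 2 genes moved together over all 138 mice (Pearson r = 0.841, Spearman rho = 0.847, given as a description because both entered the score), and over the mice without the lines OR5513 and OR1427 (r = 0.819, rho = 0.840). Of the high mice, 24 were among the 35 highest for both genes, 6 for Cxcl9 only and 5 for Cxcl10 only. At the edge of the groups, the last high mouse had a score of 0.615 and the next mouse outside 0.602. The last low mouse had −0.665 and the next mouse outside −0.649. The score therefore had no gap at either cut.

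**Figure D1:**
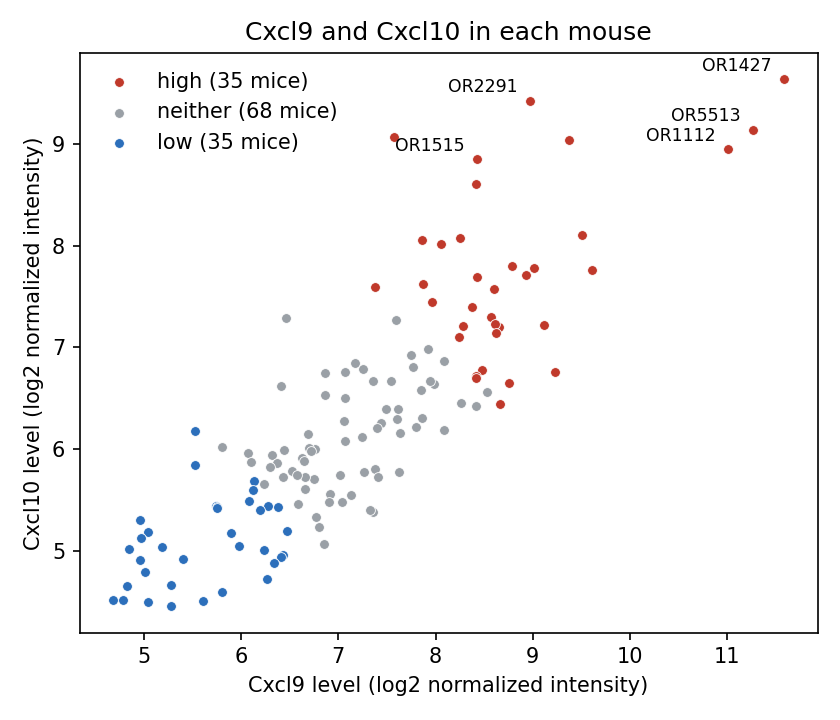
Level of Cxcl9 (horizontal axis) and Cxcl10 (vertical axis) in each of 138 mice, both as normalized log2 intensity, with 1 point per mouse and 5 high mice named by line. The points form 1 band with no gap between the 35 high mice, the 68 mice in neither group and the 35 low mice, and OR1427, OR5513 and OR1112 lie farthest along Cxcl9.

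With Cxcl9 and Cxcl10 left out, 1436 of 16615 genes differed between high and low mice at a limma adjusted p under 0.05 (8.64%). Of these, 953 rose (5.74%) and 483 fell (2.91%) in high mice, and 65 rose and 1 fell by over 2-fold. No gene separated the groups completely (0 of 16615). When the ranking was repeated over the mice without OR5513 and OR1427, 2 mice entered the high group and 0 the low group. That comparison called 1084 genes (6.52%), 787 higher (4.74%) and 297 lower (1.79%) in high mice, and 786 and 292 of these had the same call in the first comparison.

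The 12 genes with the largest rise were of several kinds. Interferon-stimulated genes were Isg15, a ubiquitin-like modifier, Ifi27l2a, the 2′-5′-oligoadenylate synthetase Oas1g and the transcription factor Irf7. Serpina3g and Serpina3f encode serine protease inhibitors induced in activated leukocytes, and Serpina3g is also counted below among the other interferon gamma targets. Arg1 (arginase), the chemokine gene Ccl8 and the eosinophil-associated ribonuclease gene Rnase2a belong to type 2 inflammation. Saa3 encodes an acute-phase protein and Fgl1 a secreted fibrinogen-like protein. Serpina3g had a lowest, median and highest level of 6.74, 11.62 and 12.62 in high mice, against 5.00, 9.75 and 12.03 in low mice (log2 difference 1.91 ± 0.34 SE, limma adjusted p = 3.78e-05). Saa3 had 7.29, 10.05 and 11.81 in high mice, against 5.42, 8.02 and 10.02 in low mice (1.84 ± 0.29 SE, adjusted p = 6.44e-06). For Saa3, 18 high mice lay above every low mouse, and the other high mice overlapped the low group. The remaining genes of the 12 had log2 differences from 1.61 (Irf7) to 1.90 (Isg15). The last of them, the class I histocompatibility gene H2-K1 (1.72), is uncertain, because its 2 kept probes ran opposite ways across mice (r = −0.72). With the authors' deposited values, where the other probe was the brighter, H2-K1 had −0.31. Lines differ in sequence, and whether differences under a probe moved a level was not tested.

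Interferon gamma itself was close to the floor of the arrays. Ifng was detected in 13 of 35 high mice and in 1 of 35 low mice, with medians of 4.67 and 4.51 and highest levels of 6.71 and 5.10. It rose in high mice by a log2 difference of 0.27 ± 0.08 SE (adjusted p = 0.0124), 0.19 without OR5513 and OR1427. Of 14 measured genes of the interferon gamma pathway, 7 rose, 0 fell and 7 were not called, where 5.74% of all genes rose. The median log2 difference was 0.22 against −0.01 over all genes. The genes that rose included the kinase gene Jak2 (0.40) and the feedback inhibitor Socs1 (0.24). They also included the interleukin 12 receptor gene Il12rb1 (0.19) and Stat4 (0.42), which act upstream in type 1 lymphocytes. Il12rb1 was dim, detected in 11 of 35 high mice and in 3 of 35 low mice. Its other kept probe gave 0.12 and was not called. The other kept probes of Stat4, both dim, gave 0.01 and 0.17 and were not called. Irf1, an interferon-induced transcription factor, rose by 0.21 at its brightest probe, and its least similar probe followed it at only r = 0.10 across mice. The receptor chains had log2 differences of −0.06 (Ifngr1) and 0.33 (Ifngr2), neither called. Tbx21, the master regulator of type 1 lymphocytes, differed by 0.20 (adjusted p = 0.155).

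Cxcr3, the receptor of both chemokines, was dim and rose. It had 4.69, 5.63 and 6.74 in high mice, against 4.28, 5.29 and 6.23 in low mice, and was detected in 33 and 27 of them (0.46 ± 0.12 SE, adjusted p = 0.00652). The third ligand of the receptor, Cxcl11, passed no detection filter and has no value here. None of the 6 measured genes that flank Cxcl9 and Cxcl10 in the RefSeq order passed the test (Ppef2, Naaa, Sdad1, Art3, Nup54 and Scarb2). Their differences ran from −0.01 to 0.20, including 0.08 for Art3, which lies between the 2 chemokine genes.

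The interferon-inducible GTPases rose as families. These proteins attack vacuoles that hold intracellular pathogens. All 5 measured guanylate-binding proteins and all 5 measured immunity-related GTPases rose, where 5.74% of all genes rose. Their median log2 differences were 1.21 and 1.11. Igtp had the smallest adjusted p of all genes named here at the probes used, with a lowest, median and highest level of 8.89, 10.34 and 11.65 in high mice, against 7.81, 8.87 and 10.01 in low mice. Its log2 difference was 1.47 ± 0.15 SE (adjusted p = 6.01e-11), and 24 high mice lay above every low mouse. Irgm2 had 9.65, 10.89 and 11.70 in high mice, against 8.74, 9.88 and 10.81 in low mice (1.11 ± 0.13 SE, adjusted p = 3.33e-09). Gbp4 had 9.05, 10.21 and 11.27 in high mice, against 7.83, 8.67 and 10.16 in low mice (1.28 ± 0.16 SE, adjusted p = 1.99e-08). For each of these the groups overlapped only in part, with 21 and 19 high mice above every low mouse for Irgm2 and Gbp4. Gbp2 (0.73), Gbp5 (1.21), Gbp6 (0.63), Ifi47 (1.39), Gvin1 (0.73) and Irgm1 (0.33) rose by varied amounts. The other probe of Gbp2 followed the one used at only r = 0.16. Irgm1 was read at a bright probe, and its other kept probe, which was dimmer, gave 1.19 (adjusted p = 4.68e-11 over all probes). Gbp2b reached 1.58, but its levels ran from 4.49 to 11.59 in high mice and from 4.33 to 10.02 in low mice, and the call was lost without OR5513 and OR1427 (1.30, adjusted p = 0.0566).

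**Figure D2:**
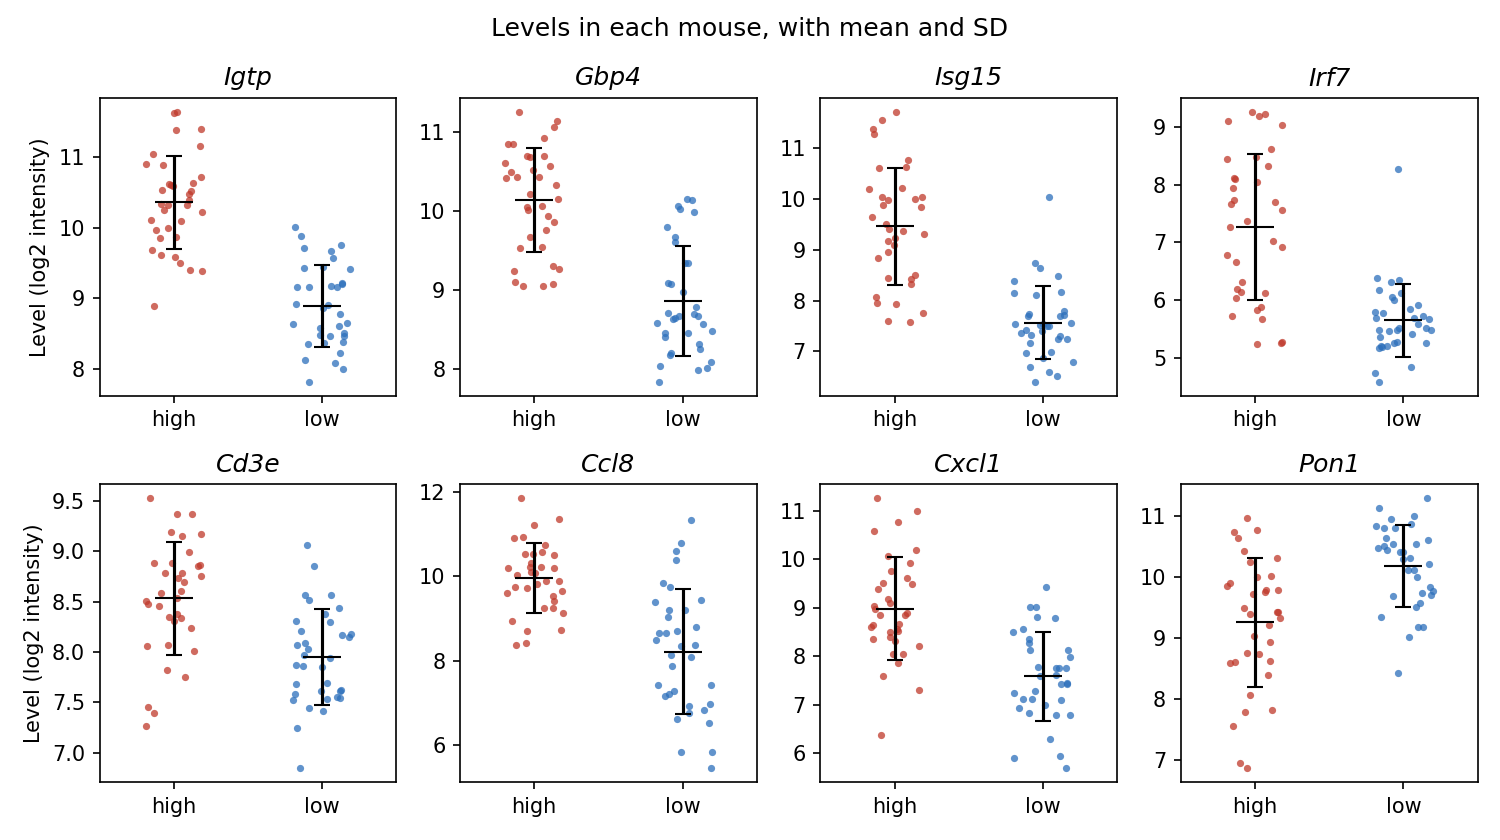
Levels (normalized log2 intensity) of 8 genes in each of the 35 high mice (left) and 35 low mice (right), with the mean and SD as a bar. Igtp and Gbp4 overlap only in part between the groups, Isg15 and Irf7 spread widely within the high mice, and Pon1 is lower in high mice.

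Of 22 other measured targets of interferon gamma, 16 rose and 0 fell, and 15 rose without OR5513 and OR1427. Over all genes, 5.74% rose in the first comparison and 4.74% without these lines. Nlrc5, which switches on class I histocompatibility genes, had 6.96, 7.92 and 9.52 in high mice, against 5.36, 6.85 and 7.97 in low mice (1.18 ± 0.14 SE, adjusted p = 6.96e-09). Ubd, a ubiquitin-like modifier, was detected in 33 high and 14 low mice, had medians of 5.79 and 4.83, and reached 10.17 in high mice against 5.31 in low mice. Its difference was 1.14 ± 0.19 SE (adjusted p = 1.45e-05), and 25 high mice lay above every low mouse. The rise also took in Ido1, the tryptophan-degrading enzyme (1.17), Cd274, which encodes the checkpoint ligand PD-L1 (0.81), Ciita, the switch of class II genes (0.79), and the Fc receptor gene Fcgr1 (0.91). Acod1, the enzyme that makes itaconate in activated macrophages, was detected in 32 high and 11 low mice and rose by 0.90, or 0.64 without OR5513 and OR1427. Nos2, the inducible nitric oxide synthase of the same cells, was detected in 14 high and 17 low mice and was not called (0.14, adjusted p = 0.572).

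Type I interferon-stimulated genes rose in nearly the whole list, 20 of 22 with 0 falling and a median log2 difference of 0.94. All genes had a median of −0.01, and 5.74% of them rose. Isg15 had 7.57, 9.42 and 11.73 in high mice, against 6.39, 7.51 and 10.05 in low mice (1.90 ± 0.23 SE, adjusted p = 6.96e-09). Irf7 had 5.24, 7.37 and 9.27 in high mice, against 4.58, 5.53 and 8.26 in low mice (1.61 ± 0.24 SE, adjusted p = 1.04e-06). Only 9 high mice exceeded every low mouse for each gene, since 1 low mouse was far above the others (10.05 for Isg15) and many high mice lay within the range of the low group. Stat2, a subunit of ISGF3, had the smallest adjusted p of the type I genes named here, with 7.35, 8.32 and 9.67 in high mice, against 6.59, 7.31 and 8.04 in low mice (0.92 ± 0.10 SE, adjusted p = 4.31e-10). The antiviral genes Oas2 (1.60), Oasl2 (1.24), Mx2 (1.12) and Rsad2 (1.08), Ifit3 (1.15) and the deconjugating protease gene Usp18 (1.16) rose as well. The 2 not called were Trim30a (0.58) and Zbp1 (0.19). As a mean z over the list, the type I score ran from −0.67 to 2.79 in high mice (median 0.90), against −0.93 to 1.05 in low mice (median −0.57).

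A fit with both chemokines as terms over all 138 mice asked which genes followed one of them more than the other. Cxcl10 had the larger slope for 47 genes (0.283% of 16615) and Cxcl9 for 4 genes (0.0241%). Of the type I interferon-stimulated genes, 19 of 22 followed Cxcl10 more than Cxcl9, with a median slope of 0.63 per SD of Cxcl10 at fixed Cxcl9 and −0.26 per SD of Cxcl9 at fixed Cxcl10. Isg15 had slopes of 1.21 on Cxcl10 and −0.46 on Cxcl9 (adjusted p of the difference 2.86e-09), Irf7 1.08 and −0.47 (4.43e-07), and Mx2 1.14 and −0.67 (0.0274). Oasl2 (0.93 and −0.43), Oas2 (0.95 and −0.34) and Rsad2 (0.83 and −0.42) also had a larger slope on Cxcl10.

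The guanylate-binding proteins and the immunity-related GTPases had no gene that followed one chemokine more than the other by this test (0 of 5 and 0 of 5). Igtp had 0.51 per SD of Cxcl10 and 0.13 per SD of Cxcl9 (adjusted p of the difference 0.519). The T cell list, also with 0 of 19 called, had a median slope of 0.20 on Cxcl9 and −0.0041 on Cxcl10. Cd3e, a chain of the T cell receptor complex, had 0.31 on Cxcl9 and −0.08 on Cxcl10 (adjusted p of the difference 0.379). Of the genes with the larger slope on Cxcl9, Hoxa5 (0.22 on Cxcl9 and −0.27 on Cxcl10), Rhebl1 (0.20 and −0.24) and Ap5s1 (0.18 and −0.18) may be named by the rule, and their levels did not pass the test between high and low mice. Since the 2 chemokines were themselves correlated, the slopes rest on mice in which they diverged.

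**Figure D3:**
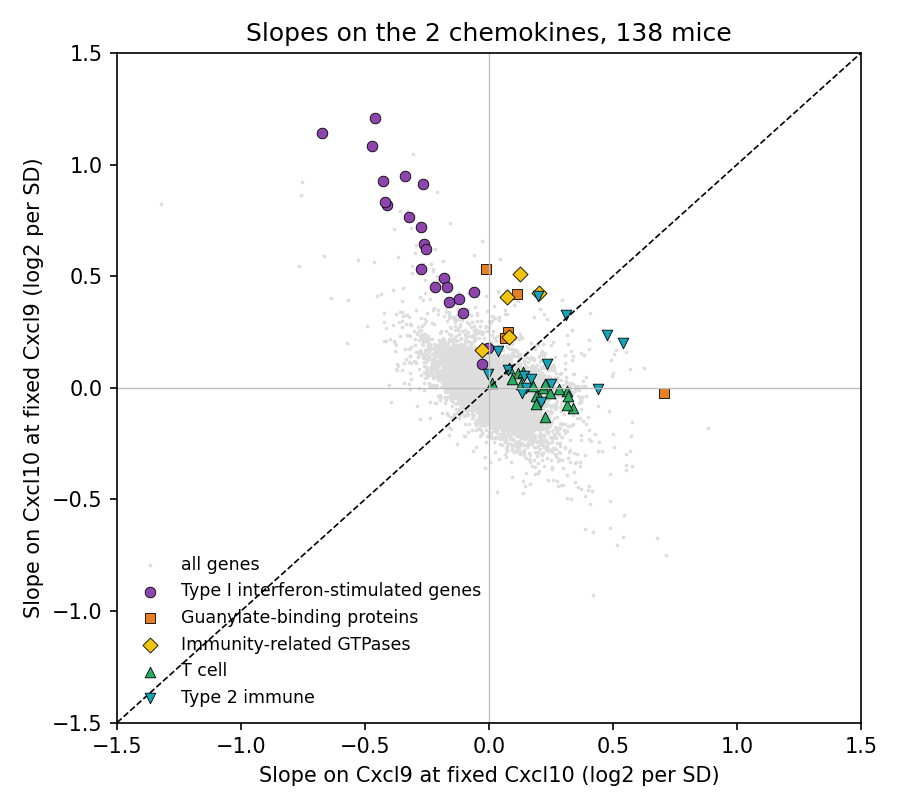
Slope of each of 16615 genes on Cxcl9 at fixed Cxcl10 (horizontal axis) and on Cxcl10 at fixed Cxcl9 (vertical axis), in log2 per SD over 138 mice, with 5 gene lists marked and a dashed line of equal slopes. Type I interferon-stimulated genes lie in the upper left, with a median of −0.26 and 0.63, and T cell genes lie to the right of 0 with median slopes of 0.20 on Cxcl9 and −0.0041 on Cxcl10.

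Among the genes whose promoters are shown above, Isg15 and Irf7 both had a larger slope on Cxcl10, and the response element was matched in the Isg15 window and not in the Irf7 window. It was also matched in the window of Igtp, which was not called for a difference between the slopes. Over the 31 genes with a larger slope on Cxcl10 that matched the RefSeq promoter table, 12 windows held it (38.7%), against 361 of 10192 windows of tested genes (3.54%). It was in 60 of 658 windows of genes that rose (9.12%) and in 5 of 331 windows of genes that fell (1.51%). The gamma-activated site was in 12.0% of windows of genes that rose, in 6.95% of those that fell, and in 8.51% of tested genes. These shares are counts of letters and were not tested. Of 15 matched type I interferon-stimulated genes, 9 held the response element, and genes of this list make up part of those with a larger slope on Cxcl10.

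Antigen presentation rose in part. Of 18 measured genes of class I and its peptide loading, 7 rose and 0 fell, where 5.74% of all genes rose. The peptide transporter gene Tap1 had 6.70, 8.0 and 9.83 in high mice, against 6.01, 6.83 and 8.46 in low mice (1.10 ± 0.15 SE, adjusted p = 3.47e-07). The immunoproteasome gene Psmb8, counted above among the other interferon gamma targets, rose by 0.67. Psmb9 had 0.72 and was not called (limma adjusted p = 0.386). Its levels ran from 4.82 to 11.06 in high mice and from 4.98 to 9.97 in low mice. The light chain gene B2m, near the top of the scale at medians of 12.44 and 12.38, had 0.10 and was not called. H2-Q6 (1.53) had levels from 5.54 to 11.64 in high mice and from 5.41 to 11.50 in low mice, a range that covers most of the scale within each group. Class II had 4 of 9 genes higher and 0 lower. H2-Ab1 rose by 0.77 at its brightest probe, but its least similar probe did not follow it (r = −0.06). The other kept probes of H2-Ab1 gave −0.36, 0.46 and 0.80, and none of these was called. H2-Ea was not called, at 4.26, 7.02 and 12.28 in high mice, against 4.30, 10.35 and 12.32 in low mice (−1.30 ± 0.71 SE, adjusted p = 0.297). It is silent by inheritance in some mouse strains, C57BL/6J among them, and both groups held mice at both ends of its range.

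Transcripts of T cells rose. In bulk tissue, more cells of a type and more RNA per cell cannot be told apart. Of 19 measured T cell markers, 13 rose and 0 fell, where 5.74% of all genes rose. Their median log2 difference was 0.42, and 12 rose without OR5513 and OR1427. Cd3g had 7.70, 8.83 and 9.78 in high mice, against 6.99, 8.0 and 9.02 in low mice (0.69 ± 0.12 SE, adjusted p = 6.25e-05). Cd3e had 7.27, 8.59 and 9.53 in high mice, against 6.85, 7.94 and 9.06 in low mice (0.58 ± 0.12 SE, adjusted p = 0.000541), and just 6 high mice exceeded every low mouse. Cd6 (0.73), Cd4 (0.40) and Cd8a (0.39) rose, with Cd4 detected in 28 high and 13 low mice and Cd8a in 26 and 14. Cd8b1 had 0.08 and was not called, and its least similar probe did not follow it (r = −0.01). The activation receptors Ctla4 (0.52) and Icos (0.45) rose. Cytotoxic and natural killer cell markers were mostly not called, with 2 of 10 higher, namely Klrg1 (0.62) and the protease gene Ctsw (0.65, not called without OR5513 and OR1427). Perforin, Prf1, had medians of 8.71 in high and 8.51 in low mice (0.10, adjusted p = 0.829).

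Of other leukocytes, monocyte and dendritic cell markers had 3 of 11 genes higher, and 2 without OR5513 and OR1427. Of all genes, 5.74% rose. Batf3, a transcription factor of cross-presenting dendritic cells, had 5.08, 6.93 and 9.29 in high mice, against 4.69, 5.74 and 7.39 in low mice (1.11 ± 0.20 SE, adjusted p = 4.26e-05), and Ccr2 (0.68) and Cd68 (0.44) were the other two. Alveolar macrophage markers had 1 of 7 higher (Mrc1, 0.54) and neutrophil markers 2 of 10 (Retnlg, 0.95, and Lcn2, 0.62). Mast cell and basophil markers had 1 of 7 lower (Gata2, −0.25, not called without OR5513 and OR1427), where 2.91% of all genes fell. B and plasma cell markers had 0 of 10 called, and Ms4a1, which encodes CD20, had 0.10. Eosinophil markers had 4 of 6 higher, and 3 without OR5513 and OR1427. Rnase2a was at 1.69 and Cebpe at 0.68. Prg2, the major basic protein, was at 1.28 and detected in 26 high and 21 low mice. Proliferation genes had 6 of 7 higher, with a median of 0.83. Birc5, which encodes the mitotic protein survivin, had 6.81, 8.06 and 9.53 in high mice, against 5.69, 7.12 and 8.69 in low mice (1.02 ± 0.16 SE, adjusted p = 6.64e-06), and Mki67 rose by 0.83.

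Other chemokine genes had 9 of 17 higher and 0 lower, and chemokine receptors 5 of 11 and 0. Without OR5513 and OR1427, 8 and 5 were higher. Of all genes, 5.74% were higher. Cxcl1, a neutrophil attractant that uses another receptor, had 6.37, 8.85 and 11.27 in high mice, against 5.69, 7.60 and 9.42 in low mice (1.40 ± 0.23 SE, adjusted p = 1.35e-05). The monocyte attractants Ccl7 (1.40) and Ccl2 (0.63), Ccl4, a chemokine of activated macrophages (1.34), and Xcl1, which attracts cross-presenting dendritic cells (0.94), rose. Ccl5, made by T cells, had 0.32 and was not called (adjusted p = 0.422). Of the receptors, Ackr1, a chemokine-binding protein of venular endothelium, rose by 0.93.

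Type 2 genes also rose in high mice. Of 15 measured, 8 rose and 0 fell, and 7 rose without OR5513 and OR1427. Over all genes, 5.74% rose. Ccl8 had 8.37, 10.03 and 11.85 in high mice, against 5.45, 8.34 and 11.32 in low mice (1.75 ± 0.28 SE, adjusted p = 6.72e-06). No high mouse was below 8.37, while 18 low mice were, yet only 2 high mice exceeded every low mouse. Arg1 had 6.10, 9.0 and 12.12 in high mice, against 4.66, 6.93 and 10.00 in low mice (1.79 ± 0.39 SE, adjusted p = 0.000814). The cytokine genes Il4 (0.77, detected in 29 high and 18 low mice) and Il5 (0.48, detected in 20 and 4) rose, as did the eotaxins Ccl11 (1.17) and Ccl24 (1.36) and the T helper 2 attractant Ccl17 (1.05). Il13 had 0.09 and was not called (adjusted p = 0.503). Mucus genes were higher in the median (0.79), but only 2 of 11 were called, Slc26a4, the anion exchanger pendrin (1.46), and Retnlb (1.20). The goblet cell genes Clca1 (1.38, adjusted p = 0.107) and Muc5ac (1.00, adjusted p = 0.170) were not called, and Clca1 reached 12.88 in high mice and 13.05 in low mice.

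The 483 genes that fell had smaller differences. Esm1, an endothelial proteoglycan, fell most, with 4.46, 6.55 and 10.01 in high mice, against 5.43, 7.77 and 10.10 in low mice (−1.17 ± 0.32 SE, adjusted p = 0.0104). Xenobiotic metabolism had 6 of 13 measured genes lower and 0 higher, and 4 lower without OR5513 and OR1427. Among all genes, 2.91% were lower in the first comparison and 1.79% without these lines. Pon1, the paraoxonase, had 6.86, 9.42 and 10.96 in high mice, against 8.42, 10.30 and 11.29 in low mice (−0.92 ± 0.21 SE, adjusted p = 0.00131), and 7 high mice lay below every low mouse. The epoxide hydrolase Ephx1 (−0.43) and the aldehyde dehydrogenase Aldh3a1 (−0.46, not called without OR5513 and OR1427) fell, as did the carboxylesterase Ces1f (−0.85).

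Others of the 12 genes with the largest fall were Sh3rf2, Fam102b, Krtap17-1, Sec14l4, Rasd2, Bex2, Ly6g6c and Rab6b, at −0.83 to −0.65. Fam102b rests on a probe that its other kept probe followed at r = 0.14, and Krtap17-1 and Ly6g6c were not called without OR5513 and OR1427. Markers of lung parenchyma had list medians from −0.19 to −0.06, and the genes called were all lower. Alveolar type 2 cells had 1 of 9 lower (Abca3, −0.17), alveolar type 1 cells 1 of 9 (Rtkn2, −0.26, whose other probe ran opposite at r = −0.18), club cells 2 of 7 (Cyp2f2, −0.22, and Cbr2, −0.17), and endothelium 2 of 9 (Cdh5, −0.26, and Tek, −0.45), where 2.91% of all genes fell. Without OR5513 and OR1427, club cells and endothelium had 1 gene lower each. The other probe of Cdh5 gave −1.21, the other kept probes of Abca3 gave −0.27 and −0.12, and none of these was called. Club cell markers had a list median of −0.19, and 31 of 35 high mice had a list score below the median of low mice. The secretoglobin gene Scgb3a2 had the largest difference of the list and was not called (−0.56 ± 0.23 SE, adjusted p = 0.117). Smooth muscle, cardiac muscle, erythroid and ciliated cell markers had 0 genes called of 8, 8, 7 and 8, and housekeeping genes 0 of 9 with a median of 0.08. Matrix genes had 2 of 10 higher, where 5.74% of all genes rose. These were the inhibitor of metalloproteinases Timp1 (1.25) and tenascin, Tnc (0.61, not called without OR5513 and OR1427).

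**Figure D4:**
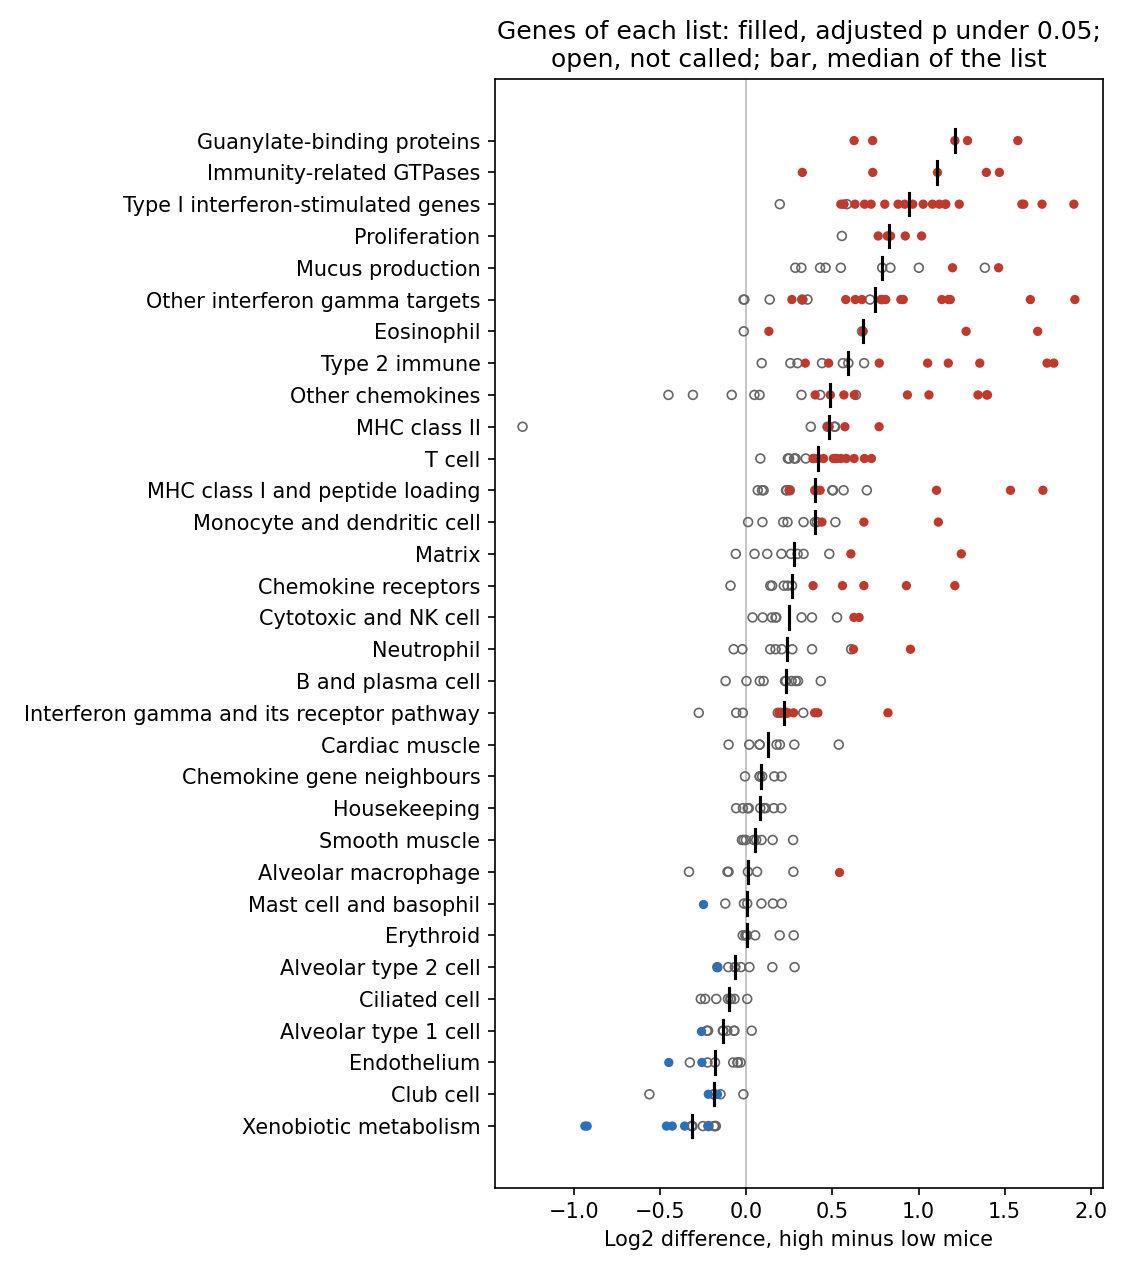
Log2 difference, high minus low mice, of each measured gene of 32 lists, ordered by the list median (black bar), with filled points called at a limma adjusted p under 0.05 and open points not called. Guanylate-binding proteins and immunity-related GTPases have all 5 genes called higher each, and xenobiotic metabolism has 6 of 13 called lower. Of all genes, 5.74% were called higher and 2.91% lower.

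Several lists rose in this 1 comparison, so it was repeated with a list score as a covariate. A list that makes up a covariate is adjusted for itself. With the type 2 score, 90 genes were called higher (0.542%) and 6 lower (0.0361%), and 89 of the 953 genes that rose kept their call. Among the lists, 17 of 22 type I interferon-stimulated genes, 3 of 5 guanylate-binding proteins, 3 of 5 immunity-related GTPases and 6 of 22 other interferon gamma targets were called higher. No T cell (0 of 19), proliferation (0 of 7) or eosinophil gene (0 of 6) was called. The list medians with this score were 0.94 for type I interferon-stimulated genes, 0.43 for proliferation, 0.25 for T cell and 0.03 for eosinophil genes, against 0.94, 0.83, 0.42 and 0.68 with no covariate. Differences between lists were not tested. With the T cell and the cytotoxic and natural killer cell scores, 206 genes were called higher (1.24%), among them 17 of 22 type I interferon-stimulated genes, 4 of 5 guanylate-binding proteins, 5 of 5 immunity-related GTPases, 5 of 7 proliferation genes and 1 of 15 type 2 genes. The type 2 median was 0.45 with these scores, against 0.59 with no covariate.

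With the type I score as the covariate, 672 genes were called (4.04%), 506 of them higher (3.05%). The higher genes included 9 of 19 T cell genes, 5 of 15 type 2 genes, 5 of 7 proliferation genes, 3 of 5 guanylate-binding proteins and 2 of 5 immunity-related GTPases. The median of the immunity-related GTPases was 0.53 with the type I score, against 1.11 with no covariate, and that of the guanylate-binding proteins 0.61, against 1.21. Igtp had 0.85 (adjusted p = 0.00102), and Isg15, a member of the list behind this score, 0.30 (adjusted p = 0.103). Igtp kept a log2 difference of 1.35 ± 0.18 SE with the type 2 score (adjusted p = 6.74e-07) and Isg15 one of 1.84 ± 0.27 SE (adjusted p = 1.26e-05), against 1.47 and 1.90 with no covariate.

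**Figure D5:**
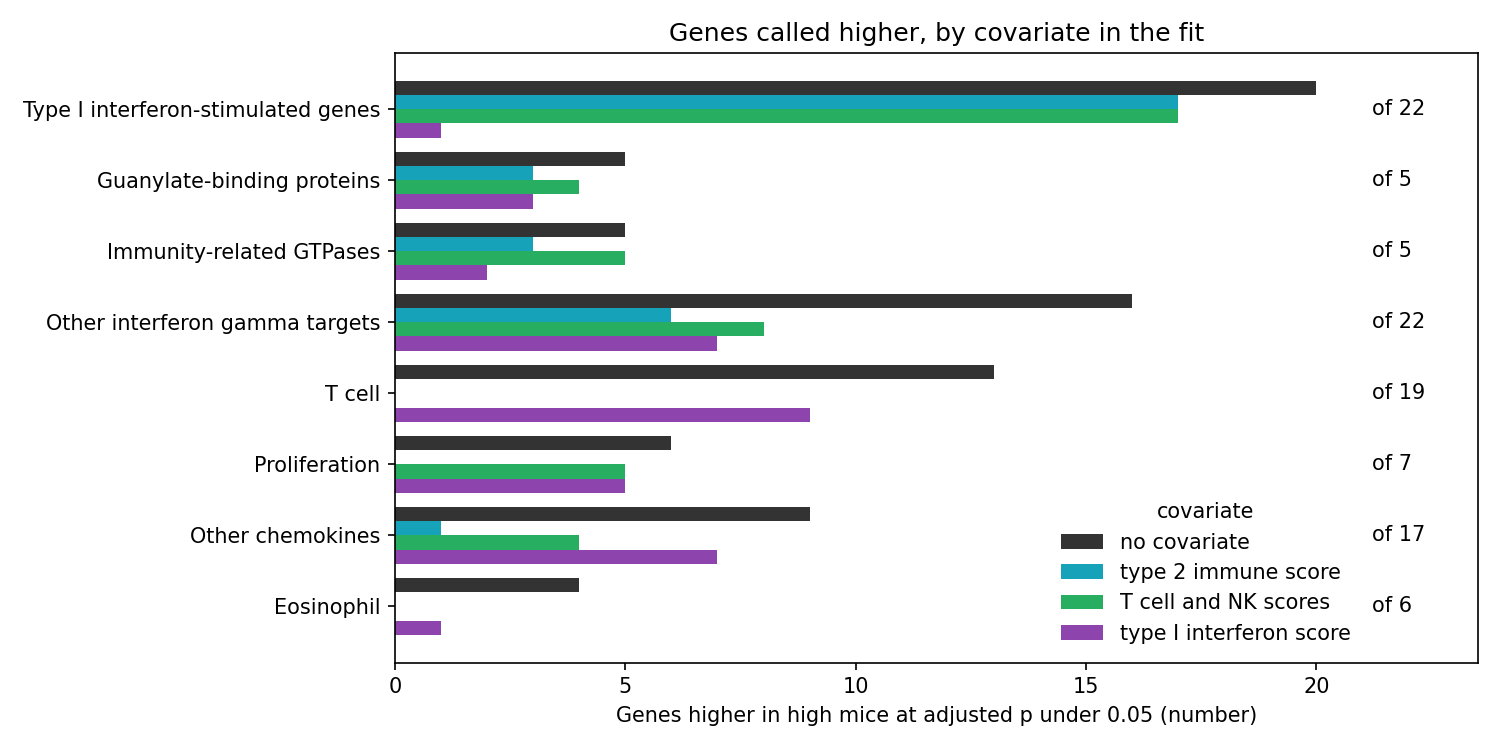
Number of genes of 8 lists called higher in high mice at a limma adjusted p under 0.05, with no covariate and with the type 2 immune, the T cell with NK cell, or the type I interferon score in the fit, and the number measured at the right. Type I interferon-stimulated genes are at 17 of 22 with the first 2 covariates, and T cell and eosinophil genes are at 0 with each of them. A list that makes up a covariate, such as the T cell genes, is adjusted for itself.

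The highest mice were not alike. OR1427 and OR5513, with scores of 3.45 and 3.06, were also high in T cell markers (list scores of 1.79 and 1.51), type 2 genes (1.72 and 1.62) and type I interferon-stimulated genes (1.20 and 0.78). OR1112, the next mouse at 2.83, had 1.51 for guanylate-binding proteins and 1.20 for immunity-related GTPases, yet 0.05 for type I interferon-stimulated genes, −0.17 for type 2 genes and −0.84 for eosinophil markers. OR2291 and OR1515 reached 1.99 and 1.95 for type I interferon-stimulated genes, with 0.40 and 0.44 for T cell markers. OR5516, at a score of 1.63, had −0.07 for type I genes and 0.02 for immunity-related GTPases. Its T cell markers were at 0.89.

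The 68 mice in neither group took no part in the comparison. In them, a slope on the score was called for 0 of 16615 genes (0%) by limma after adjustment, and 1036 had an unadjusted p under 0.05. Of the 953 genes that rose, 826 had a positive slope in these mice (86.7%, against 50.9% of all genes), and of the 483 that fell 386 had a negative slope (79.9%, against 49.1%). Their mean level lay between those of high and low mice for 939 and 477 of these genes. Picking genes by the difference between high and low mice favours that order, so it is no separate support. Ciita was the gene most like the score in the 68 mice (Pearson r = 0.437), followed by Sele, the endothelial selectin (0.427), Dck, a nucleoside kinase (0.424), Tmem254a (0.419) and Aif1, a marker of macrophages (0.409). Dsn1, Slamf8, Calm3, H2-DMb2 and Ncoa4 completed the 10, at 0.397 to 0.387. Aif1 (1.08) and Slamf8 (1.21), a receptor of myeloid cells, were also among the genes that rose in high mice. Tmem254a, Dsn1, Calm3 and Ncoa4 were not called there.

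The sample titles carry a number whose meaning the labels do not state, and it was treated as a possible batch. Numbers up to 100 were held by 18 of 35 high mice and 18 of 35 low mice. Within those mice 140 genes were called higher (0.843%) and 8 lower (0.0481%) in high mice, and within the mice with higher numbers 1019 were called (6.13%), 665 higher (4%) and 354 lower (2.13%). Type I interferon-stimulated genes had 15 of 22 called higher up to 100 and 16 of 22 over 100. T cell genes had 8 of 19 and 3 of 19, type 2 genes 0 of 15 and 7 of 15, and proliferation genes 0 of 7 and 6 of 7, with list medians of 0.49 and 0.86 for type 2 genes and 0.52 and 1.16 for proliferation. A test of the difference between the ranges called 0 of 16615 genes (limma interaction, 0%), and 1361 had an unadjusted p under 0.05.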

How the data were processed

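The scanner table deposited by the authors holds 1 bead intensity per probe and array. Its second column per array is a detection p-value, per the file headers. The authors also deposited log2 values, made with GenomeStudio and R 2.9.2 by RMA and quantile normalization, per the submitters' processing notes. Each of the 138 deposited log2 columns had a median of 5.57 and correlated best with its own scanner column. The score came from the deposited values. All other levels were computed from the intensities with neqc (limma 3.58.1, R 4.3.3, offset 16). Probes detected at p under 0.05 in at least 14 mice were kept, and a gene was read at its kept probe with the highest mean. Names follow the target names in the scanner table, matched to RefSeq symbols of GRCm38.p6 (22864 probes by symbol, 11917 by synonym, and 10500 kept the file's name). Probe sequences and slides were not used here.

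Groups were compared with limma (lmFit and eBayes), and p-values were adjusted by the Benjamini-Hochberg method over 16615 genes. Scores of lists are mean z values over mice. The members, the lists and the rule for named genes were chosen with earlier results of these data known. The text names the 12 genes per direction with the largest log2 difference past the threshold and detected in at least 35 of the 70 mice, up to 6 per direction for the contrast of the chemokines, the 10 genes most correlated with the score in the other mice, and members of 33 lists. Clone and predicted names were passed over. Some genes that the rule names are not reported here. Replicates are separate mice of different lines, so spread within a group includes differences between lines, and the number of arrays limits the precision. The steps were tested on simulated data. Alternatives are given in the closing section.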

Additional observations from a re-analysis of the deposited data

How the results depend on the processing

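Of 1436 genes called between high and low mice, counts from 1019 to 1807 were called under the authors' deposited values, no background correction, other probe filters and summaries, mice chosen on other values or on 1 chemokine, 20 or 46 mice per group, title numbers over 100 or the title number range, detected probes and raw median as covariates, or 1, 2 or 3 of OR5513, OR1427 and OR1112 left out, the last of these chosen after seeing the data. The count moved by over 1.5 times in 5 fits. A slope over all 138 mice called 2719 genes (1488 higher, 1231 lower). Title numbers up to 100 gave 148, against 1019 over 100, and the cause was not tested. The T cell with NK cell scores gave 229, the type I interferon score 672 and the type 2 immune score 96 as covariates. The contrast of Cxcl9 and Cxcl10 called 48 to 54 genes under its alternatives, against 51. Most of the named genes called between high and low mice lost their call in at least 1 alternative. Only 9 kept their call in every alternative that measured them. Signs turned in these cases. H2-K1 had −0.31 with the deposited values and −0.28 with no background correction, where another probe was used. With the type I score as a covariate, Irf7 had −0.023, Oas2 −0.11, Oasl2 −0.28, Rsad2 −0.13 and Mx2 −0.40. With the T cell and NK cell scores, Stat4 had −0.042, Cd3e −0.0082 and Icos −0.011. With the type 2 score, Ccl24 had −0.12, Retnlb −0.21 and Retnlg −0.019. Tek had 0.020 in title numbers up to 100. Most of these genes are members of the list behind the covariate, and the cause for the others was not tested. No paired analysis was possible because the labels give 1 group and no replicate numbers that pair mice. A fit with the slide as a block was not run, since the column names give no slide. Genes near the floor, such as Ifng, are limited by signal over background, and their differences are compressed.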
